A study of Homo sapiens with 16 samples.

Results

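The comparison was between the pair of MDM2 W329G lines of the series. U2OS, a human osteosarcoma cell line, had been edited with CRISPR/Cas9 to carry the W329G change in MDM2, and the edited cells were present as cells 1 and cells 2. Each line received DMSO or 50 µM 5-fluorouracil (5-FU) for 24 h, in 2 experiments that different vendors sequenced. The members were therefore all 8 W329G libraries of the 16 in the series, and the other 8 came from unedited (WT) U2OS cells, also called cells 1 and cells 2, under the same treatments. The 8 W329G libraries fall into 4 groups by line and treatment, with 1 library per experiment in each. Whether a line is a single clone, and whether the experiments began from separate cultures, is not given in the sources used here, so the p-values reflect the spread of these libraries and may cover technical spread only.

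The cell numbers were the labels for a line, but the numbers appeared exchanged between the experiments. The rule that set the comparison used this: cells 1 of experiment 1 were joined with cells 2 of experiment 2 and are called line A below, and cells 2 of experiment 1 with cells 1 of experiment 2, called line B, 4 libraries each. The joining was chosen from the expression values themselves. Differences between line A and line B are therefore given as a description with a standard error and no p-value, and tests are given for the labelled numbers within an experiment, for the labelled numbers over both experiments, and for the 5-FU response.

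MDM2 encodes the ubiquitin ligase that marks p53 for degradation, and it is a transcriptional target of p53, which closes a feedback loop. 5-FU blocks thymidylate synthase and disturbs ribosome production, and free ribosomal proteins can bind the central region of MDM2 and release p53. Lines grown out after genome editing each carry the history of the cells they came from. U2OS is aneuploid and unstable in chromosome number, so lines of one genotype can differ in gene dosage and in which genes are silenced.

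Total counts in the W329G libraries ran from 27533901 to 45063476. Osteosarcoma and osteoblast markers were mixed in the 8 libraries. RUNX2, the osteoblast lineage factor, stood between 21.1 and 58.9 CPM (reads of a gene scaled to the library's size). COL1A1, the main collagen gene of bone, stood between 2300 and 5880 CPM, and SPARC, VIM and CDH11 were at 20.6 CPM or more. Low among them were COL1A2 (at most 3.69 CPM), ALPL (at most 2.12 CPM) and BGLAP (at most 0.6 CPM). The osteoblast regulator SP7 was at most 0.05 CPM, and the muscle regulator MYOD1 at most 0.0512 CPM. Mitochondrially encoded genes took 7.14% and 7.98% of the joined counts in line A of experiment 1 (DMSO, then 5-FU) and 16.4% and 20.49% in line B. In experiment 2 they took 22% and 18.22% in line A and 20.01% and 26.02% in line B, so line A was not the lower one under DMSO there.

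With the labels taken as given, the lines of an experiment differed at many genes and the direction turned between experiments. In experiment 1, 2622 of 16519 genes tested (15.9%) differed between cells 2 and cells 1 at an adjusted p under 0.05 (edgeR quasi-likelihood test, Benjamini-Hochberg adjustment), 1534 higher and 1088 lower in cells 2. In experiment 2, 2602 genes (15.8%) differed, 1252 higher and 1350 lower in cells 2. Without mitochondrially encoded genes the split was 1338 higher and 1222 lower in experiment 1 and 1140 higher and 1378 lower in experiment 2. With a log2 difference of at least 1 asked for besides, it was 792 higher and 261 lower in experiment 1 and 281 higher and 513 lower in experiment 2. Both lists held 1486 genes, which is 56.7% of the first and 57.1% of the second. Of these, 1484 had opposite signs by label. The other 2 were ITGA11, an integrin subunit gene that was lower in cells 2 both times, and S1PR2, a sphingosine phosphate receptor gene that was higher. Over all genes tested, 74.3% had opposite signs.

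The numbers of genes called within an experiment rested on few libraries, because each line contributes 1 library per treatment. Without cells 1 under DMSO or under 5-FU of experiment 1, the count for experiment 1 was 864 or 538, and without cells 2 it was 1497 or 1470. In experiment 2 the count was 470 or 393 without a library of cells 1, and 1130 without cells 2 under DMSO.

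Put together by label over both experiments, no gene passed the test of cells 2 against cells 1: 0 of 16519 were called (0%), with edgeR as with DESeq2, and 286 had an unadjusted p under 0.05. Differences of opposite sign cancel in this contrast and add to its spread, so the result does not show that the lines were alike. For the globin gene HBE1 the standard error was 4.78 by label and 0.19 with the numbers exchanged. SEMA3A shows the turn of direction in a single gene. This guidance cue gene stood at 57.9 and 51.3 CPM in cells 1 and at 9.10 and 11.5 CPM in cells 2 of experiment 1, under DMSO and 5-FU. In experiment 2 it stood at 5.27 and 5.77 CPM in cells 1 and at 32.4 and 24.3 CPM in cells 2. The groups did not overlap within either experiment, and the difference by label was a log2 of -2.36 in experiment 1 and 2.38 in experiment 2. Across genes, the difference between the lines correlated between the treatments of an experiment (r = 0.705 and 0.629) and correlated negatively between experiments (r from -0.562 to -0.457). In the WT lines the same correlations were 0.486 and 0.602 within an experiment and -0.292 to -0.187 between experiments, across 16641 genes. The W329G values are across 16519 genes, which are not independent replicates.

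**Figure D1:**
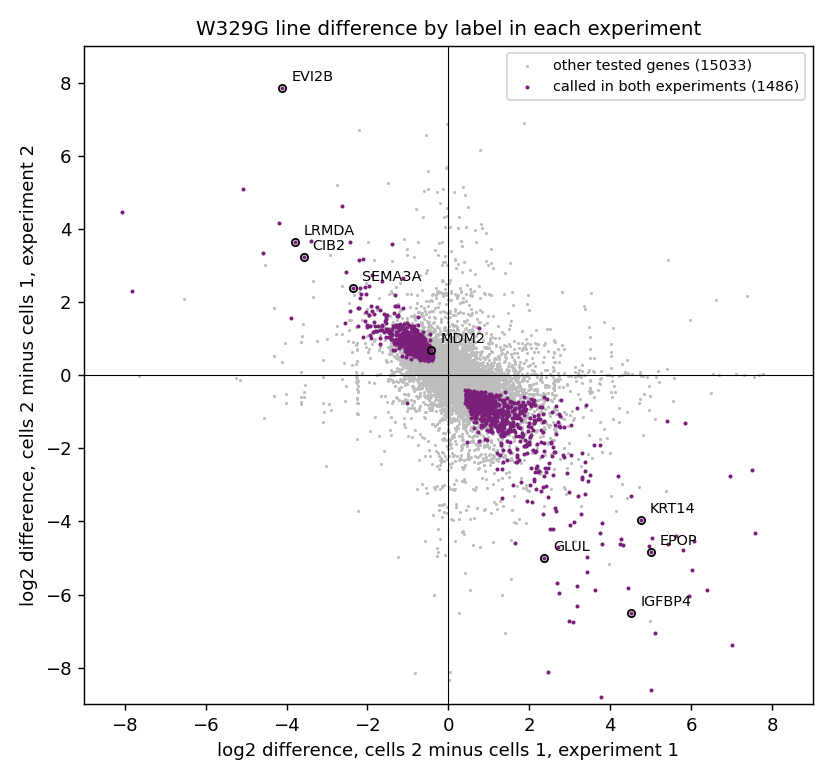
Fitted log2 difference of cells 2 minus cells 1 in experiment 1 (horizontal) and experiment 2 (vertical), 1 point per gene tested, with the 1486 genes called in both experiments in purple and 7 genes beyond the axes not drawn. The purple genes lie at the upper left and the lower right except for 2.

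With the numbers exchanged in experiment 2, 8205 genes (49.7%) had the same sign in all 4 pairs of libraries, where a pair is line A and line B of the same experiment and treatment. By label this held for 1275 genes (7.72%). A fold rule then asked for a fitted log2 difference of at least 1 in either direction and the same sign in all 4 pairs. It held for 1184 genes (7.17%) with the numbers exchanged and for 94 (0.569%) by label. Of the 1184, 318 (1.93%) were higher in line A and 866 (5.24%) in line B. The edgeR test of the joined lines called 4893 genes (29.6%), a number from which nothing is read because the joining came from these values. Just inside the fold rule, among genes of at least 5 CPM, were JAZF1 (1.001), TP53I13 (-1.002) and IFIT1 (1.002). Just outside it were the pseudogene RPL13P5 (0.998), IGDCC4 (-0.998) and JUNB (-0.999).

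The excess of genes higher in line B was larger at low levels. Among the 11291 genes with a mean of at least 5 CPM, 118 were higher in line A and 222 in line B by the fold rule (3.01%). Set against the WT libraries of the same experiment, 217 of the 866 genes higher in line B had line A below the WT range and line B within it or mixed. For 78 line B was above the WT range and line A within it or mixed, and for 544 neither line left it in both experiments. Of the 318 genes higher in line A, 86 had line A above the WT range and line B within it or mixed, 67 had line B below it and line A within it or mixed, and 155 had neither line outside it in both experiments.

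The differences that follow are log2 of line A minus line B, so that a negative value means higher in line B. Levels in CPM are given in the order DMSO and 5-FU of experiment 1, then DMSO and 5-FU of experiment 2. Fitted values carry the standard error of the fit over the 8 libraries.

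MDM2 itself was higher in line A in all 4 pairs. MDM2 (ENSG00000135679, chromosome 12, 68808176 to 68850686) measured 60.4, 75.9, 115 and 103 CPM in line A and 42.2, 57, 72.3 and 66.1 CPM in line B, a fitted difference of 0.55 ± 0.13 (SE). Over both experiments the values overlapped, since line B of experiment 2 stood near line A of experiment 1. By label within experiments, the difference had an adjusted p = 0.139 in experiment 1 and 0.0293 in experiment 2 (edgeR). WT cells under DMSO stood at 41.6 and 47.7 CPM in experiment 1 and at 75.1 and 78.5 CPM in experiment 2. Line A under DMSO was therefore above both WT lines of its experiment, and line B stood between the WT values in experiment 1 and below them in experiment 2. Read counts per gene do not show the edited codon, so they do not check which line carries it.

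CDKN1A did not show the same order in every pair. CDKN1A, which encodes the cell cycle inhibitor p21, stood at 121, 241, 58.4 and 92.5 CPM in line A and at 124, 174, 71.4 and 112 CPM in line B (-0.04 ± 0.12). TP53BP1, a DNA damage response gene on chromosome 15, was higher in line A (0.77 ± 0.08) and lies in a stretch of chromosome described below.

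At a mean of 5 CPM or more, the largest difference toward line B was that of HBE1, the embryonic beta-like globin gene (chromosome 11, 5268345 to 5505617). It stood at 0.339, 0.205, 0.292 and 0.0842 CPM in line A and at 21.3, 11.8, 16.4 and 7.95 CPM in line B (-5.99 ± 0.19). The gene as annotated overlaps the olfactory receptor gene OR51B5 on the same strand, which showed the same pattern, and reads of the pair are hard to separate. HBB, the adult beta globin gene, was at or under 0.0703 CPM in the W329G libraries.

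IGFBP4, which encodes a secreted binding protein for insulin-like growth factors (chromosome 17, 40443461 to 40457731), was the largest change at high level. It stood at 5.33, 9.52, 0.715 and 1.09 CPM in line A and at 159, 164, 73.9 and 94.3 CPM in line B (-5.29 ± 0.36). Every library of line B was above every library of line A. Of the 15 largest differences toward line B, 5 were on the long arm of chromosome 17: IGFBP4, the homeobox gene HOXB2 (-4.94 ± 0.36), EPOP (-4.91 ± 0.21), which encodes a Polycomb-associated protein, the gamma-tubulin gene TUBG2 (-4.51 ± 0.15) and the basal keratin gene KRT14 (-4.46 ± 0.19). Chromosome 17 also held 3 of the 15 largest differences toward line A, those of EVI2B, NOTUM and NLRP1. EPOP (38671703 to 38675421) stood between 0.379 and 0.762 CPM in line A and between 14.9 and 19.1 CPM in line B. TUBG2 (42659305 to 42667006) stood between 0.423 and 1.03 CPM in line A and between 7.80 and 25.1 CPM in line B. Chromosome 17 held 1007 of the 16519 genes tested. By the fold rule 83 of the 1007 were higher in line B and 18 in line A, beside 5.24% and 1.93% of all genes tested. In either direction this was 10.0% of its genes, next to 9.86% on chromosome 20 and 7.17% of all genes tested. The excess toward line B was not confined to chromosome 17. It held for 59 of 743 genes on chromosome 16, 34 of 436 on chromosome 20, 31 of 404 on chromosome 22 and 87 of 1173 on chromosome 19.

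Other genes of this group encode enzymes and surface proteins. GLUL, the glutamine synthetase gene (chromosome 1, 182381704 to 182392206), stood at 2.88, 3.97, 0.422 and 0.253 CPM in line A and at 16.7, 17.7, 10.5 and 10.7 CPM in line B (-3.31 ± 0.43). Its WT range was 9.12 to 42.5 CPM, so line A was below all 8 WT libraries. MSLN, the mesothelin gene, differed by -3.15 ± 0.23, the secreted ribonuclease gene RNASE1 by -2.68 ± 0.21, and the spindle positioning gene MISP by -2.61 ± 0.28. The receptor tyrosine kinase gene ROS1 differed by -2.42 ± 0.17, and the mitochondrial co-chaperone gene DNAJC15 by -2.28 ± 0.20. DNAJC15 stood between 1.80 and 2.53 CPM in line A, under its WT range of 10.1 to 17.5 CPM. The protocadherin genes PCDHA1 (-3.05 ± 0.25) and PCDHB15 (-2.27 ± 0.18) were also among the 15, and PCDHA1 shares exons with the rest of its cluster. The pseudogene ANKRD20A9P (-3.12 ± 0.76) has near-identical copies and is uncertain.

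At a mean of 5 CPM or more, the largest difference toward line A was that of EVI2B, a membrane protein gene of blood cells. EVI2B lies inside an intron of NF1 on the opposite strand (chromosome 17, 31303766 to 31314112). It stood at 6.63, 4.86, 18.8 and 12.6 CPM in line A and at 0.176, 0.46, 0.0266 and 0.10 CPM in line B (5.81 ± 0.58), and at most 0.701 CPM in WT. NF1 was at a much higher level, and whether counting used strand is not given in the sources used here, so NF1 intron reads cannot be set apart. Blood cell markers were low: PTPRC stood at or under 1.28 CPM in the W329G libraries and SPI1 at or under 0.527 CPM.

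LRMDA, a gene of melanocyte differentiation (chromosome 10, 75431453 to 76560167), stood at 32.6, 24.3, 28 and 19.4 CPM in line A and at 2.04, 1.91, 2.18 and 1.67 CPM in line B (3.71 ± 0.13). Its 8 WT libraries spanned 5.63 to 22.8 CPM, above every library of line B. The WT lines also differed, at 18.1 and 15.5 CPM in cells 1 and 5.74 and 5.63 CPM in cells 2 of experiment 1. In experiment 2 they stood at 7.53 and 8.89 CPM in cells 1 and at 22.8 and 22.5 CPM in cells 2. CIB2, which encodes a calcium-binding protein (chromosome 15, 78104606 to 78131544), stood at 26.6, 23.4, 13.4 and 15.9 CPM in line A and at 2.63, 1.45, 1.49 and 1.70 CPM in line B (3.40 ± 0.18). Line B was below the CIB2 WT range of 8.54 to 16.4 CPM, and the gene overlaps IDH3A on the opposite strand. ANGPT1, the angiopoietin 1 gene (chromosome 8, 107249482 to 107498055), stood at 9.17, 7.55, 12.7 and 8.96 CPM in line A and at 1.90, 1.70, 2.21 and 1.92 CPM in line B (2.29 ± 0.15). Here line B was within the WT range of 1.03 to 2.81 CPM and line A was above it.

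Further genes higher in line A were HAS2, the hyaluronan synthase gene (2.98 ± 0.26), NOTUM, which encodes an enzyme that inactivates Wnt proteins (2.68 ± 0.20), and the inflammasome sensor gene NLRP1 (2.46 ± 0.40). SEMA3A differed by 2.37 ± 0.14, GASK1B by 2.13 ± 0.13, the ephrin receptor gene EPHA3 by 2.06 ± 0.22, CHAC1 by 1.97 ± 0.54, the adhesion gene IGLON5 by 1.88 ± 0.12 and TGFA, an EGF receptor ligand gene, by 1.82 ± 0.13. Pseudogenes PPIAP22 (2.56 ± 1.47) and HNRNPA3P6 (2.66 ± 1.17) also ranked here, but each rested on line A under DMSO in experiment 2. Without that library the differences were 0.58 and 0.57.

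**Figure D2:**
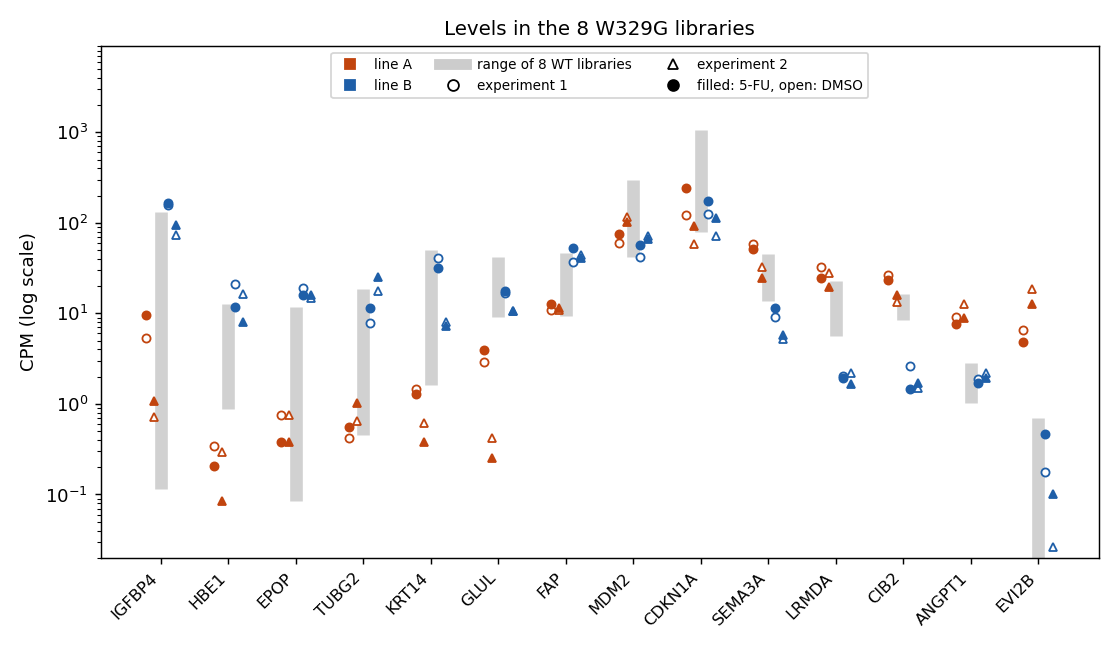
CPM on a log axis for 14 genes in the 8 W329G libraries (line A orange, line B blue, circles experiment 1, triangles experiment 2, open DMSO, filled 5-FU), with the range of the 8 WT libraries as grey bars. IGFBP4 lies between 0.715 and 9.52 CPM in line A and between 73.9 and 164 CPM in line B, while CDKN1A overlaps between the lines.

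Some genes were detected in one line and near 0 in the other. The rule for these, added after the values were seen, asked for under 0.5 CPM in all 4 libraries of a line and at least 2 CPM in all 4 of the other, and 10 genes met it. PRRX2, SLC7A3 and EVI2B were detected in line A, and HBE1, OR51B5, HOXB2, DLX4, IHO1, NMB and ADAMTS7 in line B. PRRX2, a homeobox gene of mesenchyme on chromosome 9, stood at 5.11, 4.76, 2.01 and 3.91 CPM in line A, at most 0.0354 CPM in line B and at most 0.0825 CPM in WT. IHO1, NMB and ADAMTS7 were detected in all WT libraries. IHO1, a meiotic gene, stood between 2.21 and 3.35 CPM in line B and between 2.93 and 5.03 CPM in WT, and at most 0.0631 CPM in line A. NMB, the neuromedin B gene, stood between 3.12 and 4.69 CPM in WT and at most 0.169 CPM in line A, and ADAMTS7, a metalloprotease gene, between 3.34 and 7.57 CPM in WT and at most 0.358 CPM in line A.

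Promoters of these genes are shown because CG dinucleotides, the sites of DNA methylation, are dense in some and scarce in others. The 250 bases before the transcription start are given 5′ to 3′ on the strand of the gene, from RefSeq on GRCh38.p14, with each CG in capitals. Promoters for 4 of the 10 genes were in the table used, and 3 of them are printed.
PRRX2, chr9:129665397-129665646, plus strand: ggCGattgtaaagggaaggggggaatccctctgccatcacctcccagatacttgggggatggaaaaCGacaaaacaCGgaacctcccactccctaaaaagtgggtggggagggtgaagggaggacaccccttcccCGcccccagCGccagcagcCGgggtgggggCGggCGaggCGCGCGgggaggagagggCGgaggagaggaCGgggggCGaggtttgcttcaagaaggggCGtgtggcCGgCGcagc
ADAMTS7, chr15:78811465-78811714, minus strand: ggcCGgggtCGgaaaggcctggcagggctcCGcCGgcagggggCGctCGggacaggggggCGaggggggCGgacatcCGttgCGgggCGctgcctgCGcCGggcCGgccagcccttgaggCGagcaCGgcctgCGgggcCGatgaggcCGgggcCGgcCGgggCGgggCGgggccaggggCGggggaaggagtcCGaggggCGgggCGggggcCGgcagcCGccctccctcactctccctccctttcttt
IHO1, chr3:49198178-49198427, plus strand: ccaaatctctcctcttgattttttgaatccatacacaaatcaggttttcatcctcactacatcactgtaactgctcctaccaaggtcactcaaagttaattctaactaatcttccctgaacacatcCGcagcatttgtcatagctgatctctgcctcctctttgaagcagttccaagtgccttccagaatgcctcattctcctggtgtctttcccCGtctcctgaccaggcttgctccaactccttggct

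PRRX2 had 17 CG dinucleotides in this window, ADAMTS7 29, NMB 23 and IHO1 2. Over the promoters of 12328 genes tested the median was 20, and 79.4% of them held at least 10. The on and off genes therefore included a promoter poor in CG as well as dense ones. DNA methylation was not measured here, and the counts are a description of the letters in these windows.

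The differences were also arranged along the chromosomes. The genome was cut into windows of 10 Mb with at least 10 genes of 1 CPM or more, and a window counted as shifted where the median log2 difference over its genes was at least 0.3 in size and had the same sign in both experiments. Of 295 windows 44 (14.9%) were shifted, 32 toward line A and 12 toward line B. The shifted windows held 161 of the 695 fold rule genes in windows (23.2%), beside 2040 of all 13610 genes in windows. Most fold rule genes in windows therefore lay outside the shifted ones. By label over both experiments 0 windows reached 0.3, and their medians ran from -0.08 to 0.16.

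The highest window was on chromosome 7 from 10 to 20 Mb, with a median of 1.04, and the lowest on chromosome 20 from 0 to 10 Mb, with a median of -0.65. SNX13, a sorting nexin gene in the former (17790761 to 17940501), stood at 96.2, 78.9, 108 and 80.7 CPM in line A and at 30.9, 27.2, 39.0 and 27.4 CPM in line B (1.54 ± 0.09). Adjacent shifted windows of the same sign were merged into 23 stretches. On chromosome 7 from 0 to 50 Mb, 183 of 209 genes were higher in line A, with a median of 0.45. It includes the HOXA cluster, where HOXA7 differed by 1.34 ± 0.18, and GARS1, the glycyl-tRNA synthetase gene.

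**Figure D3:**
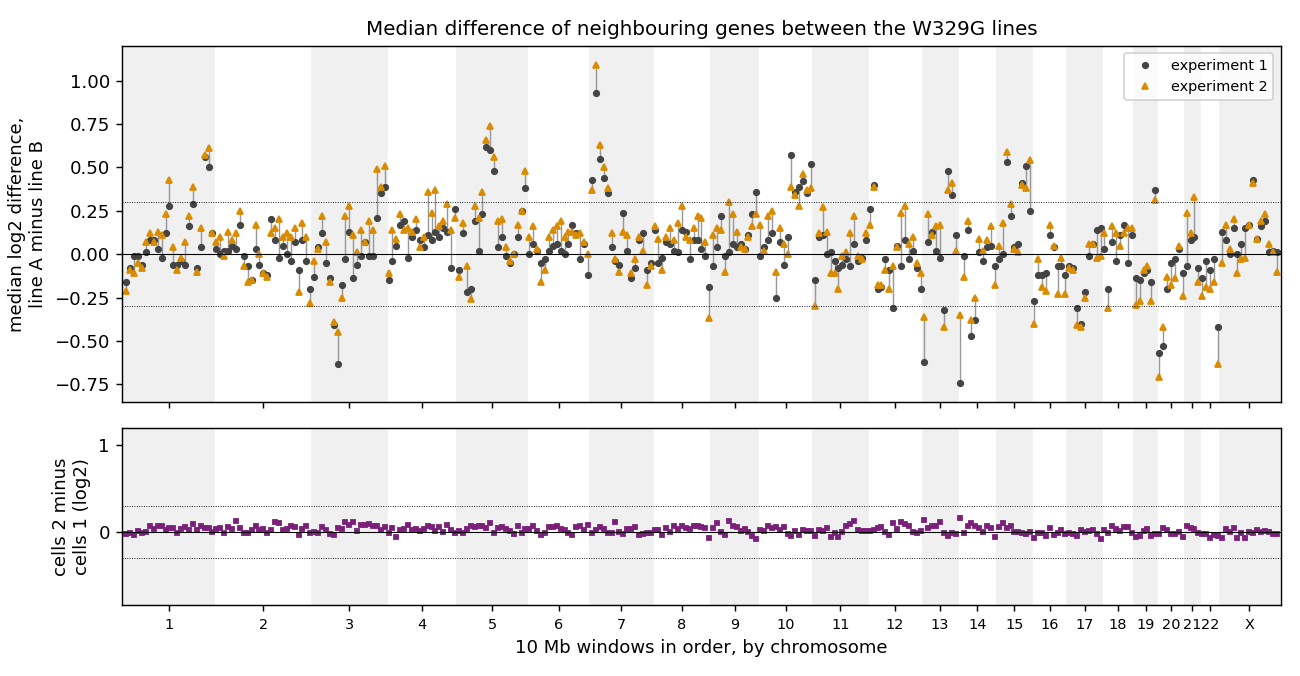
Median log2 difference of genes in 10 Mb windows, in order along chromosomes 1 to X, for line A minus line B in each experiment (upper) and for cells 2 minus cells 1 as labelled over both experiments (lower), with dotted lines at 0.3 and -0.3. Peaks on chromosomes 1, 5, 7, 10 and 15 and troughs on 3 and 20 are at similar heights in both experiments, and no labelled median reaches the dotted lines.

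Chromosome 5 from 80 to 110 Mb had the largest median of the merged stretches, 0.63, with 56 of 58 genes higher in line A. Against the WT mean of the same experiment, on the log2(CPM + 1) scale, line A was higher by a median of 0.74 in experiment 1 and 0.75 in experiment 2, and line B by 0.07 in both. ELL2, a transcription elongation factor gene, stood at 73.7, 86.7, 112 and 89.9 CPM in line A and at 32.8, 33.8, 45.7 and 36.6 CPM in line B (1.27 ± 0.11). GLRX, the glutaredoxin gene, differed by 1.14 ± 0.11 and overlaps RHOBTB3 on the opposite strand.

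Chromosome 20 from 0 to 20 Mb was the counterpart toward line B, with 88 of 95 genes higher in line B and a median of -0.60. Line A differed from WT by medians of -0.47 and -0.47, and line B by 0.00 and 0.08. SMOX, the spermine oxidase gene (20: 4120980 to 4187747), stood at 15.3, 18.8, 5.39 and 8.02 CPM in line A and at 37.1, 36.1, 15.4 and 18.1 CPM in line B (-1.23 ± 0.11). ZNF133, a zinc finger gene, differed by -1.32 ± 0.12.

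Which line departed from WT was not the same everywhere. Line A stood above WT on chromosome 1 from 220 to 240 Mb (0.50 and 0.56), where RAB4A, a small GTPase gene, differed by 1.31 ± 0.09. It was also above WT on chromosome 15 from 40 to 50 Mb (0.48 and 0.51), on chromosome 10 from 80 to 140 Mb (0.40 and 0.37) and on chromosome 3 from 170 to 200 Mb (0.32 and 0.31), with line B within 0.05 of WT in all 4 stretches. Line B stood below WT on chromosome 15 from 80 to 110 Mb (-0.45 and -0.47) and on chromosome 19 from 50 to 60 Mb (-0.40 and -0.37). In those, line A stood at -0.01 and -0.11, and at -0.07 and -0.08. On chromosome 17 from 20 to 40 Mb it was line B that stood above the WT mean (0.29 and 0.30). The WT lines, joined by number in the same way, themselves differed there by a median of -0.32. Their mean therefore lies between unlike lines. On chromosome 3 from 50 to 70 Mb both lines were below WT, line A by medians of -0.70 and -0.57 and line B by -0.33 and -0.15. DNA copy number was not measured here.

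**Figure D4:**
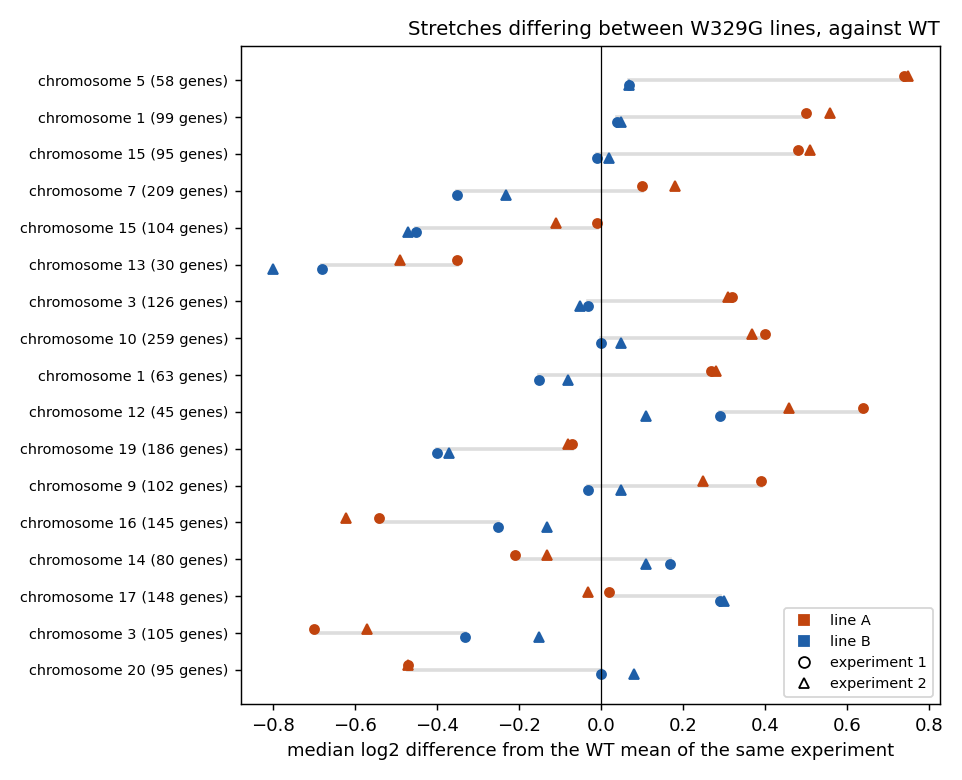
Median log2(CPM + 1) difference of line A (orange) and line B (blue) from the WT mean of the same experiment, for the stretches with at least 30 genes, named by chromosome and number of genes, ordered by the difference between the lines. Line A lies to the right of line B in the upper rows, for example at 0.74 and 0.75 against 0.07 on chromosome 5, and to the left in the lower ones.

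By function, lists with more calls toward line A than toward line B included those of amino acid supply, adhesion, the cell cycle and zinc finger genes. Beside each count, the share of all genes tested that was called toward line A was 6.59% in experiment 1 and 7.58% in experiment 2, and toward line B 9.29% and 8.17%. By the fold rule it was 1.93% toward line A and 5.24% toward line B. Of 32 genes of amino acid synthesis and transport controlled by ATF4, 14 were called toward line A in experiment 1 and 4 in experiment 2, and 0 toward line B. The median difference of the list was 0.30, against -0.02 over all genes tested. SLC7A11, the cystine transporter gene (chromosome 4, 138164097 to 138242349), stood at 164, 123, 213 and 116 CPM in line A and at 95.2, 40.4, 134 and 44.4 CPM in line B (1.10 ± 0.16). GARS1 (chromosome 7, 30594681 to 30634033) averaged 478 ± 133 CPM (SD, n = 4) in line A and 230 ± 54.3 CPM in line B, a fitted difference of 1.03 ± 0.10 (SE). All 4 libraries of line A were above all 4 of line B, and PHGDH, the first enzyme of serine synthesis, differed by 0.82 ± 0.15. GARS1 and PHGDH lie in shifted stretches, as does CHAC1. The 3 members past the fold rule were CHAC1, SLC7A11 and GARS1.

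Of 50 adhesion and guidance genes 11 were called toward line A and 5 toward line B in each experiment, with a median of 0.18. By the fold rule 5 were higher in line A and 4 in line B. L1CAM, a neural adhesion gene, went toward line B: it stood at 60.9, 61.4, 34.3 and 39.7 CPM in line A and at 224, 174, 118 and 118 CPM in line B (-1.70 ± 0.10). Of 47 genes that act in G1/S or in DNA replication, 5 and 8 were called toward line A and 2 and 0 toward line B in experiments 1 and 2, with a median of 0.13. CHAF1B, a chromatin assembly factor subunit gene, stood at 32.3, 32.7, 40.6 and 38.4 CPM in line A and at 16.7, 13.5, 17.4 and 18.1 CPM in line B (1.12 ± 0.09). Of 46 genes of G2 and mitosis, 5 and 8 were called toward line A and 1 and 2 toward line B, with NUSAP1 at 0.96 ± 0.10 and PRC1 at 0.84 ± 0.08. Both NUSAP1 and PRC1 lie in shifted stretches of chromosome 15. Of 76 cytosolic ribosomal protein genes 6 and 5 were called toward line A and 0 and 1 toward line B, with a median of 0.17, and the counts toward line A were near the shares of all genes. RPL12, a gene of the large ribosomal subunit, stood at 1020, 514, 666 and 471 CPM in line A and at 454, 293, 397 and 252 CPM in line B (0.90 ± 0.10), higher in line A in all 4 pairs. Of 485 zinc finger genes named ZNF, 62 and 54 were called toward line A and 28 and 20 toward line B, with a median of 0.08, and by the fold rule 7 were higher in line A and 16 in line B, beside 1.93% and 5.24% of all genes tested. ZNF83 (1.34 ± 0.15) and ZNF613 lie in the chromosome 19 stretch.

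Of 44 interferon-stimulated genes 6 and 3 were called toward line A and 3 and 3 toward line B, with a median of 0.07. The 3 past the fold rule were IFI44 (1.25 ± 0.16), IFIT2 (1.07 ± 0.24) and IFIT1 (1.00 ± 0.14), of which the IFIT genes lie in the chromosome 10 stretch. Of 34 HOX genes 5 and 8 were called toward line A and 4 and 1 toward line B, with HOXA13 at 1.79 ± 0.24 beside HOXB2, which went the other way.

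Lists toward line B included those of epithelial, contractile, lipid and folding genes. Of 25 epithelial and squamous markers 4 and 5 were called toward line B and 0 toward line A, with a median of -0.42. KRT8, the simple epithelial keratin gene (chromosome 12, 52897187 to 52949954), stood at 114, 117, 33.7 and 31.5 CPM in line A and at 371, 342, 163 and 183 CPM in line B (-2.02 ± 0.15). Its partner KRT18, which overlaps it on the opposite strand, differed by -0.32 ± 0.08. KRT8 spanned 130 to 416 CPM in WT, so it was line A that stood lower, and the other epithelial markers past the fold rule were KRT5, KRT14 and CLDN7. Of 12 muscle markers 4 and 3 were called toward line B, 1 and 0 toward line A, and the smooth muscle genes CNN1 (-1.92 ± 0.13) and TAGLN (-1.12 ± 0.14) were among them.

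Of 44 matrix and osteoblast genes 9 were called toward line B and 5 toward line A in each experiment. FAP, the fibroblast activation protein gene, stood between 10.9 and 12.8 CPM in line A and between 36.5 and 53.3 CPM in line B (-1.91 ± 0.12). BGN, the biglycan gene, differed by -3.08 ± 0.21, and COL1A1 by -0.79 ± 0.13. Of 24 genes of cholesterol synthesis 4 and 6 were called toward line B and 0 toward line A, with the sterol reductase gene TM7SF2 at -1.30 ± 0.23, a gene that overlaps VPS51. Of 24 unfolded protein and heat shock genes 8 and 4 were called toward line B and 0 toward line A, with the chaperone gene CALR at -0.61 ± 0.10.

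In the list of 77 p53 target genes 5 and 7 were called toward line A and 11 and 14 toward line B, and the median of -0.03 was next to that of all genes. The fold rule was met by 4 of them toward line B and 0 toward line A, beside 5.24% and 1.93% of all genes tested: SERPINB5 (-3.77 ± 0.45), SYTL1 (-1.94 ± 0.23), CASP1 (-1.55 ± 0.27) and GDF15 (-1.18 ± 0.18). Of the 13 mitochondrially encoded genes 12 were called toward line B in experiment 1, and 0 were called in experiment 2, where 0 also passed toward line A. Mitochondrial counts thus moved with the lines in experiment 1, and without these genes the counts of genes called were 2560 in experiment 1 and 2518 in experiment 2.

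The WT lines were set beside these values with their numbers joined the same way, cells 1 of experiment 1 with cells 2 of experiment 2. IGFBP4 stood at 5.53 and 7.46 CPM in WT cells 1 and at 70.3 and 132 CPM in WT cells 2 of experiment 1. In experiment 2 it stood at 71.8 and 82.9 CPM in WT cells 1 and at 0.114 and 0.172 CPM in WT cells 2. EPOP, HOXB2, TUBG2, MISP, HBE1 and PCDHA1 had the same order in WT. Their joined differences on the log2(CPM + 1) scale were -3.16, -2.85, -2.22, -1.7, -1.34 and -1.17. The opposite order was seen for ANKRD20A9P (1.78), KRT14 (1.67), GLUL (1.18) and ROS1 (1.14), and by 0.26 or less for DNAJC15, RNASE1 and MSLN. Toward line A, HAS2 (1.78), GASK1B (1.42), LRMDA (1.39), EPHA3 (1.19) and PPIAP22 (1.06) had the same order in WT. CIB2 (-0.36), ANGPT1 (-0.06) and CHAC1 (-0.06) had the opposite one. The remaining largest differences had the same order, with a WT difference under 1 in size. Of the 340 W329G fold rule genes of at least 5 CPM, 46 had a joined WT difference of at least 1 in the same direction and 10 in the opposite one. A WT difference of that size was present in 150 of 11291 genes.

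In 3 of the 23 stretches the joined WT lines also had a median of at least 0.3 with the same sign. The WT medians were 0.35 on chromosome 1 from 110 to 120 Mb, 0.37 on chromosome 12 from 10 to 20 Mb and -0.32 on chromosome 17 from 20 to 40 Mb, next to 0.34, 0.32 and -0.37 in W329G. On chromosome 5 from 80 to 110 Mb and on chromosome 20 from 0 to 20 Mb they were 0.05 and 0.00, next to 0.63 and -0.60. Whether the W329G and WT differences of a stretch differed was not tested.

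No single gene passed a test for a different 5-FU response in the lines. Each line had 1 library per treatment in an experiment, so this does not show that the responses were alike. The response of line A minus that of line B passed in 0 of 16519 genes (0%) with edgeR and with DESeq2, and 219 had an unadjusted p under 0.05. By label 0 passed (0%), with 30 at an unadjusted p under 0.05. The labelled fit leaves the differences between line A and line B in its spread, so its 0 says little about the responses. With a line term per experiment added, 179 genes had an unadjusted p under 0.05 and 0 passed (edgeR). The contrast of the responses of line A and line B is within lines and did not enter the joining. Without cells 1 under DMSO of experiment 1, 11 genes passed, 9 of them with the lower response in line A, and all but AGAP4 are pseudogenes. Without cells 2 under 5-FU of experiment 1 only the histone pseudogene H3P6 passed.

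Over the 77 p53 target genes, the mean log2 response was 0.26 and 0.10 in line A (experiments 1 and 2) and 0.21 and 0.03 in line B. In the 4 WT line and experiment pairs it ran from 1.03 to 1.31. MDM2 responded by 0.33 and -0.16 in line A and by 0.43 and -0.13 in line B, where the WT lines ranged from 1.62 to 2.24. CDKN1A responded by 0.99 and 0.66 in line A and by 0.48 and 0.65 in line B. The order of the lines for CDKN1A was not the same in both experiments. For the 76 cytosolic ribosomal protein genes the mean response was -0.60 and -0.18 in line A and -0.10 and -0.30 in line B, and the value of -0.60 was below those of the other 7 line and experiment pairs, WT included, which ran from -0.30 to -0.02. In that pair all 76 genes were lower under 5-FU.

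**Figure D5:**
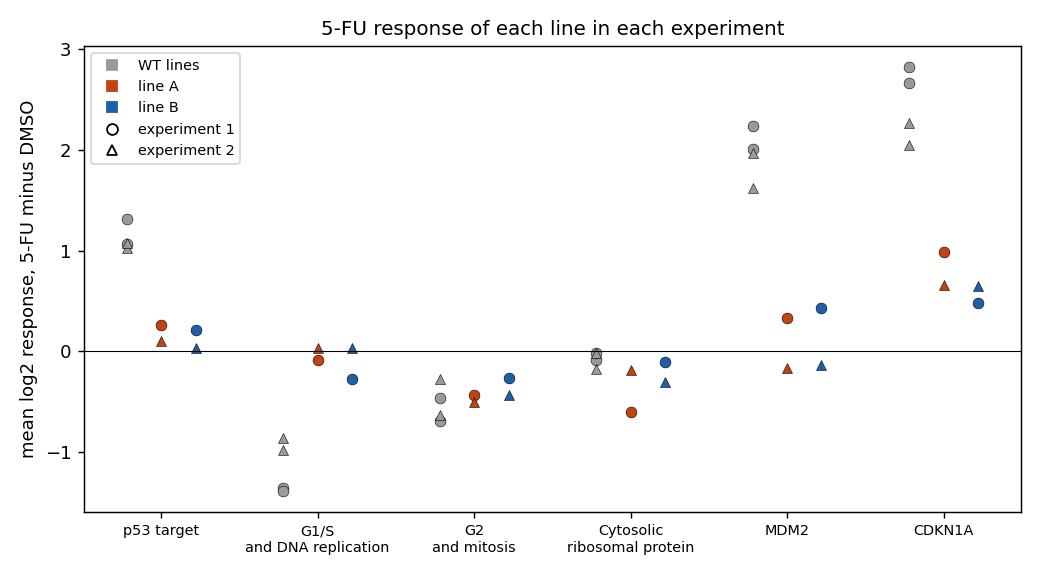
Mean log2 response (5-FU minus DMSO, prior count 2) of gene lists and of MDM2 and CDKN1A in each line and experiment, 1 point per pair of libraries, with WT lines in grey. Both W329G lines lie below all WT points for the p53 target genes, MDM2 and CDKN1A.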

How the data were processed

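Poly-A RNA-seq of the 8 W329G libraries was analysed, with the 8 WT libraries as reference levels. For each library the authors deposited raw read counts per gene in a table of its own. Aligner, counter and strand setting: not given in the sources used here. As genome build, the submitters' processing notes give hg19, while 96.3% of 56898 genes in the experiment 1 tables have the start and end of GENCODE 29 on GRCh38, and coordinates are those of these tables. The largest deposited counts of experiment 2 appear rounded, since the 26 values with 7 or more digits have a last digit of 0.

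The experiments were joined by gene symbol: 28684 genes, 241 of them through an older symbol, held 97.9% to 98.66% of the W329G counts. Counts were fitted with edgeR 4.0.16 (R 4.3.3) on the 8 W329G libraries, with TMM factors, filterByExpr by group, terms for experiment and treatment, and an adjusted p threshold of 0.05. Within an experiment the DMSO and 5-FU libraries of a line stood as its 2 libraries. Standard errors are the absolute log2 difference over the root of F. DESeq2 1.42.0 was an alternative. CPM use TMM factors of all 16 libraries, with prior count 2 for pair signs and responses. Depth makes counting error small at 5 CPM or more, so the number of lines limits the precision. The scripts were tested on simulated data.

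Groups, experiment and cell number come from the sample titles. The replicate number is the experiment, which the labels give as a shared experiment, so experiment is a block. The members, gene lists and the joining were chosen with earlier results of these data known. Genes named were MDM2, CDKN1A and the 15 largest differences per direction of at least 5 CPM with the same sign in all 4 pairs, up to 3 genes per list and leading genes of shifted windows, leaving out clone names. A few items under the rule are not reported here. Window shifts of 0.3, the on and off rule and the WT joining were set after seeing the data, and other genes are named after their values were seen.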

Additional observations from a re-analysis of the deposited data

Results flagged for a closer look

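Among the genes called in both experiments, 1484 differed between cells 2 and cells 1 with opposite signs in experiments 1 and 2. The difference between the experiments was not tested, because the comparison was built on it. The 23 merged stretches of shifted windows likewise had opposite signs by label in the experiments, which their definition requires.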

How the results depend on the processing

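The genes called in experiment 1 (2622) and experiment 2 (2602) were within 1.5 times these counts under DESeq2 size factors, the DESeq2 test, no filter on low counts and removal of mitochondrially encoded genes. With a treatment effect of its own in each experiment they were 4229 and 4552, with each experiment fitted alone 4453 and 5298, and with an absolute log2 difference of at least 1 they were 1053 and 794. Leaving out 1 library gave 538 to 3489 in experiment 1 and 393 to 3293 in experiment 2. The fold rule of the joined lines gave 94 genes in place of 1184 with the numbers as labelled, and 1100 to 1537 under the other settings. No gene was called by label over both experiments under any alternative run, a contrast in which differences of opposite sign cancel. The labels tie the replicate number to an experiment, and without the replicate block 0 genes were called by label, 0 in either response comparison, and 1100 met the fold rule, against 1184 with it. The counts within an experiment were not run without the block. The response of the joined lines gave 0 to 11 genes when 1 library was left out, and 0 under the other settings. Shifted windows were 14.9% at 10 Mb, 16% at 5 Mb and 15% with a minimum of 5 CPM. Of the alternatives for single named genes, 4043 kept the size of the difference within the spread between libraries, 35 moved and 0 reversed. Where leaving out a library leaves a line with 1 library in an experiment, that library is assumed to vary like the others.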
